A study of Drosophila melanogaster with 2 samples.

Results

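Drosophila melanogaster has 54 protein-coding genes whose symbols begin with RpL followed by a number or a P, the names of the proteins of the large subunit of the cytoplasmic ribosome and of their close relatives. These genes were taken by symbol from the Ensembl annotation, out of 13968 protein-coding genes on the chromosome arms, and each was examined for binding of tHMG1 (CG7045) at its promoter. tHMG1 belongs to the HMG-box proteins, which bend DNA, and takes its name from the testis. The binding data were chromatin immunoprecipitation and sequencing (ChIP-seq) of whole adult male flies of the strain CG7045-GFP, a transgenic line that stably expresses tHMG1 with GFP fused to its C-terminus, recovered with an antibody against GFP. There were 2 biological replicates, with the numbers 1 and 3, in 1 group, which allowed no contrast between groups. The age of the flies was given as unknown. Every tissue of the male contributed to each sample, so a peak does not show in which cells the protein was bound.

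The deposited values were peak lists on build dm6, in which each peak has a summit and a signal of the authors' own. The authors' list of peaks reproducible between replicates by irreproducible discovery rate (IDR) held 4574 peaks, whose signals ran from 90.3 to 2864 around a median of 145.9. A pooled list and a list for each replicate held 30000 peaks each, background included, and signals, which the authors had not scaled between replicates, were compared within a list only. The depth of sequencing was unknown, which leaves each signal without a counting interval. A gene was counted as having a peak where a summit lay within 500 bp of any of its annotated transcription start sites (TSSs), and its value is that of the strongest such summit. Distances are negative upstream of the TSS.

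The large ribosomal subunit carries out peptide bond formation and holds the tunnel through which the new protein leaves. Its proteins are needed in like amounts in every cell, and loss of 1 copy of many of their genes gives the Minute phenotype of thin bristles and slow development. In flies the ribosomal protein genes are known for an unusual start site, the TCT or polypyrimidine initiator, in place of the common initiator and the TATA box. A few of these genes have a duplicate, and some duplicates are known for expression in the germline.

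The sequences below, from the RefSeq copy of build dm6, show the start sites of 4 of the genes with the strongest peaks, RpL23A, RpL34b, RpL14 and RpL13A, and of 3 duplicated pairs on which the comparison of paralogs turns. Each runs from 50 bases before the TSS and covers 70 bases in all, with the last 20 beginning at the TSS itself. It was taken at the annotated TSS nearest to the gene's summit, or at the annotated TSS where the gene had no summit. Capitals mark CTTT, the core of the TCT initiator, where it starts within 15 bases of the TSS on the sense strand.
RpL23A: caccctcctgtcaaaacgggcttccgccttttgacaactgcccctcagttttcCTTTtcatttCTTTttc
RpL34b: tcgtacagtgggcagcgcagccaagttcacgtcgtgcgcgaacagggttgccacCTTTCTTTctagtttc
RpL34a: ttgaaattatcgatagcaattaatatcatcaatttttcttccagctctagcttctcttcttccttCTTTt
RpL14: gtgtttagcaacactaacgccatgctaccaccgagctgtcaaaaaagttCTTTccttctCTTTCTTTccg
RpL13A: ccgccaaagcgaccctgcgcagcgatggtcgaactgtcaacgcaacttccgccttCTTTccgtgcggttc
RpL10Ab: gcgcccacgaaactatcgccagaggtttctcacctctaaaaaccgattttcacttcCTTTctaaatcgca
RpL10Aa: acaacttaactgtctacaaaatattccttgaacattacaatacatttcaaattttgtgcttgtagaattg
RpL24: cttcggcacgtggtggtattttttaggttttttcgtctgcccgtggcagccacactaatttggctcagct
RpL24-like: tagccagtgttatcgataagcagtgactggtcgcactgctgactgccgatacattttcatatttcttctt
The windows are chr3L:1668635-1668704 (minus strand) for RpL23A, chr3R:9401207-9401276 (minus strand) for RpL34b and chr3R:26059248-26059317 (minus strand) for its duplicate RpL34a. Those of RpL14 and RpL13A are chr3L:8600956-8601025 (plus strand) and chr3R:5624424-5624493 (plus strand). RpL10Ab has chr3L:11822801-11822870 (plus strand) and its duplicate RpL10Aa chr3R:15037316-15037385 (plus strand), and RpL24 has chr2L:13395112-13395181 (minus strand) and its relative RpL24-like chr3R:11431563-11431632 (minus strand). RpL14 held CTTT at 3 places and RpL23A and RpL34b at 2, while those of RpL10Aa, RpL24 and RpL24-like held none within 15 bases of the TSS. RpL24 held it near another of its annotated TSSs.

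Most of the large-subunit genes had a promoter peak. In the IDR list 39 of the 54 did (72.2%, exact binomial 95% interval 58.4 to 83.5, which covers the counting of genes only), beside 21.4% of all protein-coding genes (2996 of 13968). Among the 4574 strongest peaks of replicate 1 the count was 38 members (70.4%), beside 21.7% of coding genes, and among those of replicate 3 it was 37 members (68.5%), beside 20.8%. In the pooled list with background it was 51 members (94.4%), beside 55.8%. No test was made over genes, which are not replicates of a condition.

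The peaks at these genes were also higher than most in the list. The 39 genes had IDR signals of 101 to 694 around a median of 255 (quartiles 166 and 411), beside a median of 166 over all coding genes with a peak. Of the 39, 32 lay above the median of the IDR list. Of the 2996 coding genes with a peak, 1791 had one at or above that median. Among the 1000 strongest peaks of the list ranked 21 of the 39 (53.8%), beside 29.4% of all coding genes with a peak. None reached the range of the highest peaks of the list, since the strongest, at RpL7, ranked 130th. In the plot of signals by gene no member lies between RpL10Ab at 101, the weakest inside the IDR list, and RpL29 at 86.6, the strongest outside it.

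**Figure D1:**
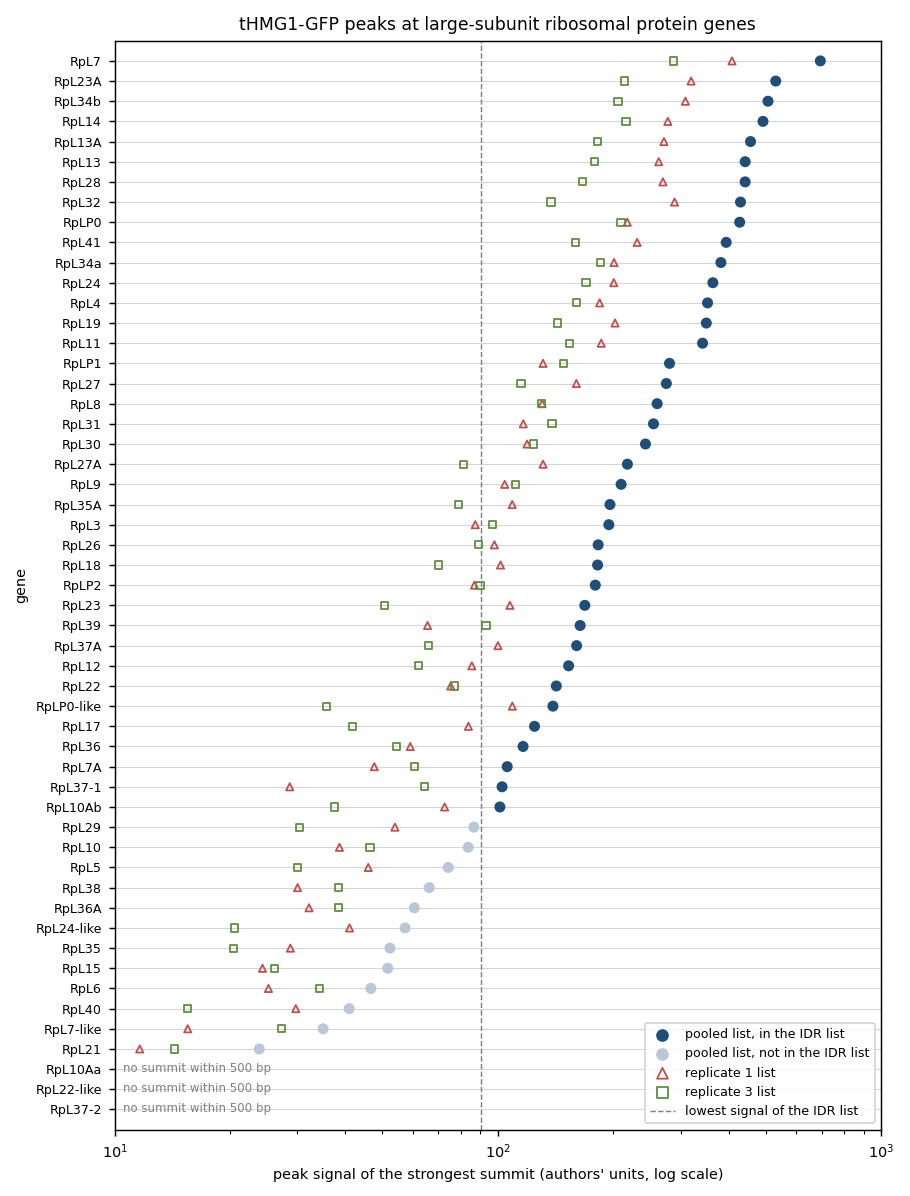
Peak signal of the strongest summit within 500 bp of a TSS (authors' units, log scale) for 53 of the genes, in the pooled list (circles, dark where the peak is also in the IDR list), the replicate 1 list (triangles) and the replicate 3 list (squares). Signals run from 694 at RpL7 to 23.8 at RpL21 in the pooled list, with the lowest IDR signal of 90.3 dashed, and 3 genes have no summit in any list.

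The genes with the strongest peaks were high in both replicates. RpL7 (chr2L:10201004-10202321) stood at 408 in replicate 1 and 287 in replicate 3, and 694 in the IDR list, with the summit 36 bp downstream of its TSS, in the 5' UTR. RpL23A, whose protein sits at the mouth of the exit tunnel where the signal recognition particle docks, had 319 in replicate 1 and 214 in replicate 3, and 531 in the IDR list, at -72 bp. RpL34b had 309 in replicate 1 and 206 in replicate 3, and 507 in the IDR list, at -105 bp. These 3 genes ranked between 123rd and 230th in each replicate's own list.

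RpL14, RpL13A and RpL13 followed with IDR signals between 442 and 492. RpL14 had 278 in replicate 1 and 216 in replicate 3, and 492 in the IDR list, at -13 bp. RpL13A, which in mammals also belongs to a complex that represses translation of inflammatory messages, had 271 in replicate 1 and 182 in replicate 3, and 456 in the IDR list, at -62 bp. All of these summits lay outside annotated genes. RpL13 had 263 in replicate 1 and 179 in replicate 3, and 442 in the IDR list, at -21 bp.

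RpL28 had 269.6 in replicate 1 and 166 in replicate 3, and 442 in the IDR list, at -72 bp. RpL32, the gene long used in flies as a reference for transcript measurements under the name rp49, had 289 in replicate 1 and 138 in replicate 3, and 429.7 in the IDR list, at -122 bp. RpLP0, the base of the P-stalk, had 218 in replicate 1 and 209.6 in replicate 3, and 428 in the IDR list, at -33 bp. RpL32 had the largest difference in rank between replicates among these 9 genes, with rank 253 in replicate 1 and rank 556 in replicate 3.

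The genes were also counted by the part of the subunit that each protein builds. These counts are small and were not tested, and 72.2% of all members had an IDR peak. The P-stalk was covered in full. The stalk recruits the translation factors that hydrolyse GTP, and all 4 of its genes had an IDR peak, RpLP0 at 428, RpLP1 at 280.5, RpLP2 at 179.6 and RpL12 at 153. RpLP1 had 131 in replicate 1 and 148 in replicate 3, RpLP2 86.9 in replicate 1 and 89.9 in replicate 3, and RpL12 85.5 in replicate 1 and 62.1 in replicate 3. All 4 genes were among the strongest peaks of both replicates.

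The exit tunnel and its rim are lined by proteins that guide the new chain. Of their genes 7 of 8 had a peak, beside 39 of all 54 members. After RpL23A came RpL4 at 353, RpL19 at 349.9, RpL31 at 255, RpL26 at 183, RpL39 at 164 and RpL17 at 125 in the IDR list. RpL35, on the X chromosome, was the exception, with 52.3 in the pooled list, 28.8 in replicate 1 and 20.4 in replicate 3.

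Other functional sites were split. RpL5 and RpL11 carry the 5S rRNA into the subunit together, and in mammals both also bind the p53 regulator Mdm2. RpL11 had 342 in the IDR list, 186 in replicate 1 and 154 in replicate 3, and RpL5 had no IDR peak and stood at 74.2 in the pooled list, 45.9 in replicate 1 and 30.03 in replicate 3. RpL11 was the higher of the pair in every list.

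Of the proteins that reach toward the peptidyl transferase centre, RpL8 had 260.4 and RpL3 had 195 in the IDR list. RpL10, which in yeast is among the last proteins to join the subunit, had no IDR peak and 83.7 in the pooled list. In the L1 stalk, which moves with the leaving tRNA, RpL10Ab had a peak and RpL10Aa had none. RpL40, made as a fusion with ubiquitin that is then cut away, had no IDR peak and 40.9 in the pooled list. Of the other 34 genes, 24 had a peak.

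The summits at these genes lay very near the start site. The strongest IDR summit was at a median of -33 bp, 36 of the 39 genes (92.3%) had it within 100 bp of the TSS, and the farthest, at RpL23, lay at -198 bp. Among all coding genes with a peak the median was -132 bp and 33.5% had the summit within 100 bp. In 30 of the 39 genes (76.9%) it lay within the 100 bp upstream of the TSS, beside 24.7% of coding genes. The small-subunit genes gave a median of -26.5 bp, with 23 of 24 genes within 100 bp, so the closeness was shared by the genes of both subunits.

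**Figure D2:**
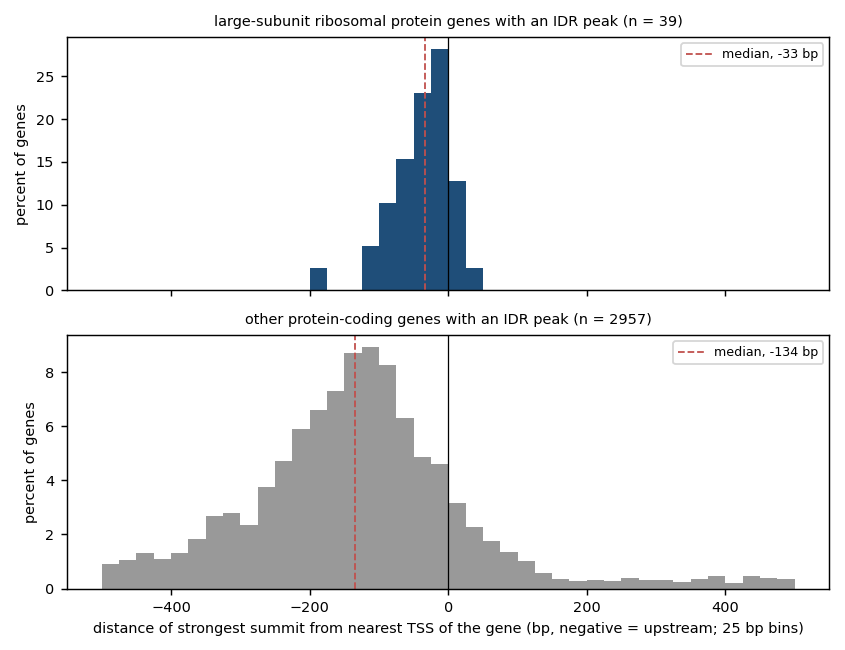
Distance of the strongest IDR summit from the nearest TSS of its gene (bp, negative upstream, bins of 25 bp, percent of genes) for the 39 large-subunit genes with a peak (top) and the other 2957 protein-coding genes with a peak (bottom), with medians dashed. The large-subunit summits gather at a median of -33 bp, while the other genes have a broad distribution upstream with a median of -134 bp.

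Most summits lay on the upstream side, as in the genome at large. Upstream were 33 of the 39 summits and downstream 6 (15.4%), and of all coding genes with a peak 85.3% had the summit upstream. The 6 downstream were RpL7, RpL27, RpL9, RpL12, RpL17 and RpL7A, at 2 to 36 bp. By annotation 28 summits lay outside genes, 9 in a 5' UTR, 1 in an intron of RpL26, and 1, that of RpL41, inside the sodium channel gene NaCP60E.

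Many of these promoters have another gene starting near the summit, as do those of all coding genes with a peak. For 20 of the 39 genes (51.3%) another coding gene had a TSS within 500 bp of the summit, beside 55.9% of all coding genes with a peak. In 38 of 39 (97.4%) the nearest TSS was nonetheless that of the large-subunit gene, beside 71.6% of coding genes whose strongest summit was nearest to their own TSS. The exception was RpLP0-like, whose summit lay 53 bp from its own TSS and 34 bp from that of 14-3-3zeta. RpL13 shared its summit with Dref, which encodes the DNA replication-related element factor and starts 63 bp from it on the other strand. RpL7 shared one with Ripalpha (66 bp), RpL14 with Nelf-E (114 bp), RpL28 with the initiation factor gene eIF1 (309 bp) and RpL36 with Mybbp1A (277 bp).

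At 5 genes the IDR list held a pair of summits within 500 bp of the TSS. RpL28 had 442 at -72 bp and 283 at -326 bp. RpL27A had 218 at -4 bp and 156 at -204 bp, and RpL18 had 182 at -81 bp and 103 at -280 bp. In these 3 genes the stronger summit was the one nearer to the TSS. RpL23 was the reverse, with 169 at -198 bp and 100.02 at 1 bp.

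The replicates gave much the same order of genes. A summit was present in the lists of both replicates at 51 genes and in neither at 3. Across the 51 genes the signals of the replicates had a Spearman rho of 0.92, a description over genes that share the same libraries. All 39 genes with an IDR peak were among the strongest peaks of at least 1 replicate and 34 were among those of both. The IDR list was made from these same replicates, so this overlap is partly built in and is no separate support. Its share over all IDR peaks was not computed. The summits of the replicates lay a median of 25 bp apart and within 50 bp of each other at 34 genes, with the widest gap, 274 bp, at RpL23.

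**Figure D3:**
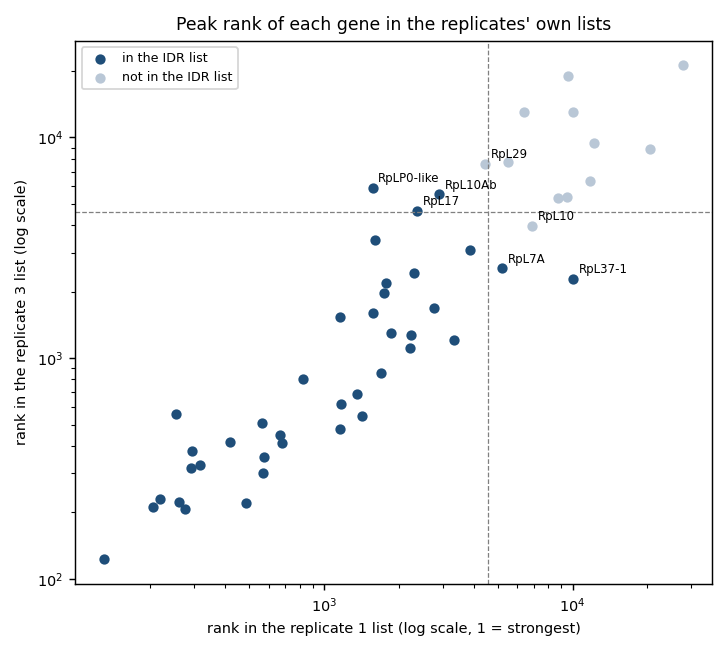
Rank of each gene's strongest summit in the replicate 1 list (x axis) and the replicate 3 list (y axis), both on log scales with 1 the strongest, for the 51 genes with a summit in both lists, with dashed lines at rank 4574. The 34 genes at the lower left are among the strongest peaks of both replicates, and the 7 named genes are among those of a single replicate.

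The replicates disagreed about 7 genes near the threshold. Only in replicate 1 were RpL10Ab, RpL17, RpLP0-like and RpL29 among the strongest peaks, and only in replicate 3 RpL37-1, RpL7A and RpL10. RpL37-1 had 28.6 in replicate 1 (rank 10061) and 64.5 in replicate 3 (rank 2294). RpLP0-like had 109 in replicate 1 (rank 1571) and 35.7 in replicate 3 (rank 5932). RpL17 missed the limit in replicate 3 narrowly, at rank 4663. RpL7A had 47.6 in replicate 1 (rank 5221) and 60.6 in replicate 3 (rank 2563), and RpL10Ab had 72.6 in replicate 1 (rank 2908) and 37.5 in replicate 3 (rank 5533). The 5 of these genes that had an IDR peak were among the 7 members with the lowest IDR signals, beside RpL36 and RpL22.

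Of the 15 genes without an IDR peak, 12 had a weaker summit in the pooled list. Their pooled signals ran from 23.8 to 86.6 with a median of 54.8. The pooled list held a summit at 55.8% of all coding genes. That share was not computed for the coding genes without an IDR peak. Just outside the IDR list stood RpL29 at 86.6 and RpL10 at 83.7, and just inside it RpL10Ab at 101 and RpL37-1 at 103. RpL29 had 53.9 in replicate 1 and 30.3 in replicate 3, and RpL10 had 38.6 in replicate 1 and 46.4 in replicate 3. The other 10 were RpL5, RpL38, RpL36A, RpL24-like, RpL35, RpL15, RpL6, RpL40, RpL7-like and RpL21. At 8 of the 12 genes this weak summit also lay within 100 bp of the TSS, beside 39.6% of all coding genes with a pooled summit. In the IDR list no gene stood near the edge of the 500 bp window. The IDR summits lay at most 198 bp from a TSS, at RpL23. The nearest IDR summit to a gene without a peak lay 3465 bp away, at RpL6. In the other lists the replicate 1 summit counted for RpL35 lay at -492 bp, near that edge, while its pooled summit lay at -14 bp. The summit counted for RpL7-like in the pooled and replicate 3 lists lay at -412 bp.

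Some of these genes lay far from any IDR peak. RpL5, RpL15 and RpL38 are known as genes of pericentric heterochromatin. Their nearest IDR summits were 367962 bp away for RpL5, 4388355 bp away for RpL15 and 227868 bp away for RpL38, while their weak pooled summits lay 46 bp, 48 bp and 27 bp from a TSS. The same held for RpL10 at 216571 bp and RpL21 at 79145 bp, whose pooled summits were 24 bp and 235 bp from a TSS. In all, 5 of the 54 genes (9.26%) lay over 50000 bp from an IDR summit, beside 1535 of the 13968 coding genes. The share was slightly lower among the members than among all coding genes. Such distances therefore do not set the large-subunit genes apart from coding genes at large. They were absent from the related lists, with 0 of 39 small-subunit, 0 of 47 mitochondrial large-subunit and 0 of 19 ribosome biogenesis genes. This difference was not tested.

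Duplicated genes were compared within each pair. Of 7 duplicated pairs, 2 had an IDR peak at both genes, 5 at a single gene and 0 at neither. Taken singly, 21.4% of all coding genes had an IDR peak, so a duplicate without one is common. In these 5 pairs the gene with the peak was RpL7, RpL22, RpL24, RpL10Ab or RpL37-1. RpL22, RpL10Ab and RpL37-1 each have 2 coding introns, where RpL22-like, RpL10Aa and RpL37-2 have 0. Protein identity between the members of a pair, from a global alignment of the annotated translations, ranged from 18.1% to 79.5%. It was 41.0% for RpL22 and RpL22-like, 32.7% for RpL7 and RpL7-like and 27.8% for RpL24 and RpL24-like. The counts of pairs therefore include distant relatives as well as close copies.

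RpL34b and RpL34a were the pair with the most alike proteins, 79.5% identical, and both had strong peaks. RpL34b had 309 in replicate 1 and 206 in replicate 3, against 201 in replicate 1 and 185 in replicate 3 for RpL34a. The IDR signals were 507 and 382, a ratio of 1.33, and the replicates' own lists gave ratios of 1.54 for replicate 1 and 1.11 for replicate 3. Both summits lay upstream, at -105 bp and -86 bp, and each gene had a neighbour on the opposite strand, CG8132 at 164 bp and Trmt61 at 143 bp.

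RpLP0 and RpLP0-like had proteins only 18.1% identical, and RpLP0-like is the fly counterpart of yeast Mrt4, an assembly factor that holds the place of the stalk base during maturation. RpLP0 had 218 in replicate 1 and 209.6 in replicate 3, against 109 in replicate 1 and 35.7 in replicate 3 for RpLP0-like. The ratio of IDR signals was 3.07, and those of the replicates' lists were 1.99 for replicate 1 and 5.87 for replicate 3. The peak at RpLP0-like was the one nearer to 14-3-3zeta, so under a rule that assigns a summit to its nearest TSS 1 pair had a peak at both genes.

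In 3 pairs the duplicate had no summit in any list. In the pooled list 6172 of the 13968 coding genes likewise had none, so this does not set the duplicates apart. RpL22 had an IDR signal of 142, with 75.3 and 77.1 in replicates 1 and 3, while RpL22-like, known for expression in the male germline, had none within 500 bp. RpL37-1 had an IDR signal of 103, and RpL37-2, whose protein is 72.0% identical, had none. RpL10Ab had an IDR signal of 101, and RpL10Aa, whose protein is 63.6% identical, had none. The nearest summits of the pooled list lay 4165 bp from RpL22-like, 620.0 bp from RpL37-2 and 5450.0 bp from RpL10Aa. The genes of these pairs that had a peak were all among the weaker members, with IDR signals of 101 to 142.

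In the other 2 pairs the duplicate had only weak summits within 500 bp. RpL7 had 408 in replicate 1 and 287 in replicate 3, against 15.5 in replicate 1 and 27.2 in replicate 3 for RpL7-like, a pooled ratio of 19.8. RpL24 had 201 in replicate 1 and 169.8 in replicate 3, against 41.0 in replicate 1 and 20.5 in replicate 3 for RpL24-like, a pooled ratio of 6.36. RpL24-like is the counterpart of yeast Rlp24, which occupies the site of the RpL24 protein until late in assembly. The pooled summit counted for RpL24-like, at -173 bp, lay in CG5276, 17 bp from the TSS of that gene. The pooled summit counted for RpL7-like, at -412 bp, lay in JhI-21, 35 bp from the TSS of that gene, so both were nearer to a neighbour than to the duplicate. The replicate values were not all of these summits, since the 15.5 of RpL7-like in replicate 1 came from a summit at -8 bp and the 20.5 of RpL24-like in replicate 3 from a summit 84 bp downstream.

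**Figure D4:**
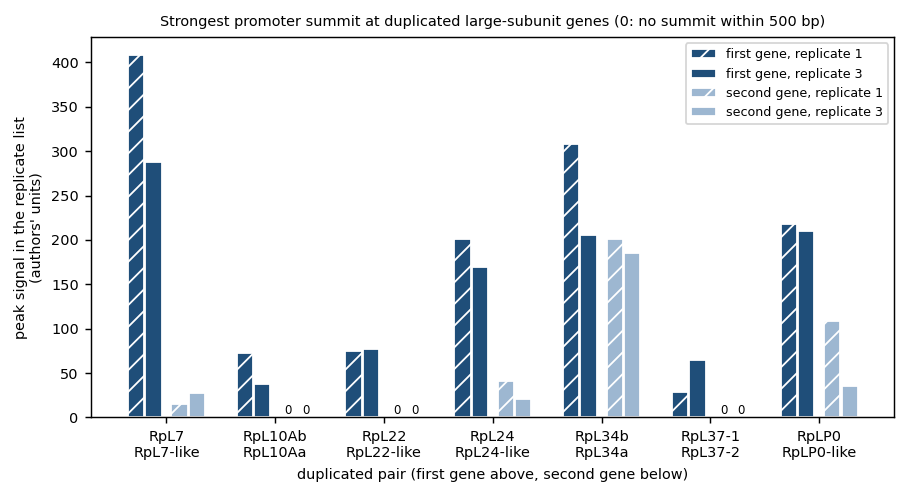
Peak signal (authors' units) of the strongest summit within 500 bp of a TSS at each gene of the 7 duplicated pairs, in replicate 1 (hatched) and replicate 3 (plain), the first-named gene dark and the second light, with 0 written where no summit was found. RpL34b and RpL34a are both above 185 in each replicate, while RpL10Aa, RpL22-like and RpL37-2 have no summit.

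The genes were also counted by whether an intron interrupts their coding sequence. Of the 9 without one 3 had an IDR peak (RpL26, RpL27 and RpLP2), beside 36 of the 45 genes with at least 1 coding intron. The 6 without a peak were RpL10Aa, RpL22-like, RpL37-2, RpL21, RpL38 and RpL40, of which the first 3 are the duplicates with no summit. RpL21 and RpL38 are also among the genes over 50000 bp from an IDR summit. Many ribosomal protein genes house small nucleolar RNAs, the guides of rRNA modification, and 13 of 16 genes with an annotated snoRNA inside had a peak, beside 26 of the 38 without. Shares by intron or snoRNA were not computed over all coding genes, so neither split can be called particular to the large-subunit genes.

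Peaks at the genes on the X chromosome were low. Of the 6 genes there 5 had an IDR peak, with signals of 103 to 142 and a median of 116, while on the other chromosomes 34 of 48 genes had a peak, with a median of 278 and a range of 101 to 694. RpL22 had 142, RpL17 125, RpL36 116, RpL7A 106 and RpL37-1 103, so every X-linked member with a peak lay below the median of the IDR list. Among all coding genes 14.0% of those on X had a peak, with a median of 154, beside 22.8% elsewhere, with a median of 169. Males carry a single X, and the part of copy number in these values was not tested. By arm, 8 of 13 members on 2L, 10 of 14 on 2R, 8 of 10 on 3L and 8 of 11 on 3R had a peak.

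The promoters were searched for 8 motifs in the reference sequence, from 250 bases before to 50 after each annotated TSS of a gene. The core of the TCT initiator, CTTT on the sense strand, started within 5 bases of a TSS in 33 of the 54 genes (61.1%), in 64.1% of the small-subunit genes and in 8.06% of all coding genes. Within 15 bases it did so in 49 genes (90.7%), beside 21.1% of all coding genes, and RpL10Aa, RpL12, RpL17, RpL24-like and RpLP0-like were the 5 without it. With 1 TSS per gene, its outermost 5' end, the share within 5 bases was 33.3%, beside 5.63%. Between the members with and without an IDR peak the share within 15 bases was 92.3% (36 of 39) and 86.7% (13 of 15).

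Of the other motifs, each searched on both strands unless stated, the DNA replication-related element TATCGATA was in 27.8% of the members' promoters, beside 10.2% of all coding genes. The E-box CACGTG was in 24.1%, beside 5.29%, with 14.8%, beside 4.2%, for 1 TSS per gene. The M1BP core GGTCACAC was in 18.5%, beside 8.69%. The GAGA motif GAGAG was in 25.9%, beside 36.2%. AACAAT, a site type bound by SRY-like HMG-box proteins, was in 44.4%, beside 37.3%, but in 24.1%, beside 25.7%, in a window of 200 bp centred on the TSS. The repeat CACACACA was in 3.7%, beside 7.08%. TATAAA on the sense strand anywhere in the window was in 35.2%, beside 37.0%, and in the centred window in 11.1%, beside 24.8%. Among small-subunit genes TATCGATA was in 33.3%, GGTCACAC in 15.4%, GAGAG in 12.8%, AACAAT and TATAAA in 35.9% each, and CACACACA in 10.3%. CACGTG was in 5.13% of the small-subunit genes, in 0.0% with 1 TSS per gene and in 12.8% in the centred window. The element TATCGATA was in 28.2% of the members with a peak and 26.7% of those without, and AACAAT in 41.0% and 53.3%. In the centred window AACAAT was in 15.4% of the members with a peak (6 of 39) and 46.7% of those without (7 of 15). CACGTG was in 20.5% and 33.3% in the main window, and in 28.2% and 46.7% in the centred window. GGTCACAC went the other way, with 20.5% and 13.3% in the main window. These differences were not tested. GAGAG and CACACACA can overlap themselves, and a promoter was counted once. A match is a description of the letters, not of a bound site.

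**Figure D5:**
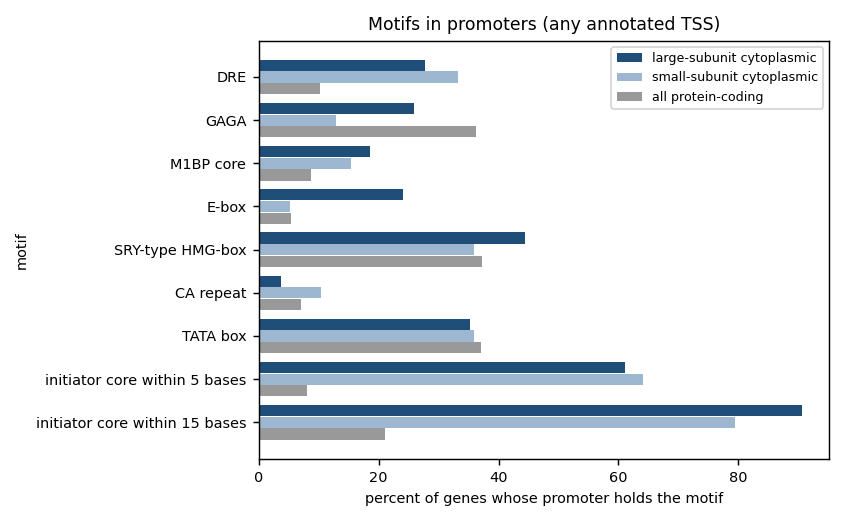
Percent of genes whose promoter, 250 bases before to 50 after any annotated TSS, holds each motif, for the 54 large-subunit genes (dark), the 39 small-subunit genes (light) and all 13968 protein-coding genes (grey). The initiator core within 15 bases is found in 90.7% of the large-subunit genes and 21.1% of all coding genes.

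Peaks at the large-subunit genes were set beside those of related gene lists. The counts were 39 of 54 large-subunit genes (72.2%), 24 of 39 small-subunit genes (61.5%), 9 of 19 ribosome biogenesis genes (47.4%) and 20 of 47 mitochondrial large-subunit genes (42.6%). The median IDR signals were 255, 205, 209 and 167 in the same order. In replicate 3 alone the order of the first pair turned, with 68.5% of large-subunit and 69.2% of small-subunit genes, so these 2 lists could not be ranked by their share. The strongest peaks of the other lists were higher than that of RpL7, with 1457 at eIF6, whose protein keeps the large subunit from joining too early, 1726 at mRpL41 and 823 at RpS27.

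The place of the summit was alike at the genes of both cytoplasmic subunits and farther from the TSS at the other lists. The median distance was -33 bp at large-subunit genes and -26.5 bp at small-subunit genes, against -180.0 bp at biogenesis genes and -124 bp at mitochondrial large-subunit genes. Within 100 bp of the TSS lay 36 of 39 large-subunit summits, 23 of 24 small-subunit summits, 1 of 9 biogenesis summits and 5 of 20 mitochondrial summits. The strongest summit was nearest to the gene's own TSS at 97.4% of large-subunit genes, at all 24 small-subunit genes with a peak, 33.3% of biogenesis genes and 40.0% of mitochondrial large-subunit genes.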

How the data were processed

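ChIP-seq peak lists of 2 replicates were used. The peak signal is the authors' deposited value, not scaled between replicates, and served to rank and describe the peaks of a single list. Per the deposited file notes, each replicate's list came from its alignments and a further file shared by both, and the IDR list from the replicates' lists and the pooled list. The aligner, the caller and the IDR cutoff were not given in the sources used here, and read depth is unknown, so precision per peak cannot be given. Lists on build dm3 were not used here.

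Genes, TSSs and translations were those of Ensembl release 115, without transposable elements. Sequence was that of the RefSeq copy of the release 6 assembly, which is dm6. A peak was assigned to every gene with a TSS within 500 bp of its summit. Because the replicate lists include background, the strongest 4574 peaks of each were set beside the IDR list. Proteins were aligned globally (BLOSUM 62, gap opening 11, extension 1) with Biopython 1.88, and motifs searched with Python 3.11.15, numpy 2.4.6, pandas 2.3.3 and scipy 1.17.1. The assignment was tested on simulated data with planted summits.

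The members, lists and motifs were chosen with earlier results of these data known, so no test was made over them. Named in full are the 10 members with the strongest IDR summit, duplicated pairs, members nearest to the threshold and members whose replicates disagree, with other genes named where they share a summit or head a comparison list. 1 member is counted in the totals and is not reported here on its own. Alternatives were other windows, the stronger 50% of IDR peaks, each replicate alone, 1 TSS per gene, nearest-TSS and interval rules, and the pooled list.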

Additional observations from a re-analysis of the deposited data

How the results depend on the processing

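The number of large-subunit genes with a peak was 39 with windows of 250 and 1000 bp, 1 TSS per gene or a peak interval covering a TSS, 38 with only summits nearest to the gene's own TSS, 32 with the stronger 50% of the IDR peaks, 51 in the pooled list and 37 to 38 with a replicate left out. The median IDR signal was 311.32 with the stronger 50%, 257.59 with own-nearest summits and 182.7 in the pooled list, and 130.18 to 130.83 on the replicates' own scales. The median distance was -26 bp with 1 TSS per gene and -38.5 to -30 bp with a replicate left out. The downstream share was 12.5% with the stronger 50%, 25.6% with 1 TSS per gene, 19.6% in the pooled list and 15.8% to 18.9% with a replicate left out. Pairs with a peak at both genes numbered 1 with the stronger 50%, 1 with own-nearest summits, 4 in the pooled list and 1 to 2 with a replicate left out. Pairs with a peak at 1 gene numbered 3 with the stronger 50% and 3 in the pooled list, and pairs with none 3 with the stronger 50% and 1 with either replicate left out. All coding genes with a peak numbered 1791 with the stronger 50% and 7796 in the pooled list. Biogenesis genes numbered 3 with own-nearest summits, 4 with intervals covering a TSS and 17 in the pooled list, and mitochondrial large-subunit genes 12 with the stronger 50%, 8 with own-nearest summits and 39 in the pooled list. In a window of 200 bp centred on the TSS, AACAAT was in 24.1% of members, beside 25.7% of all coding genes, CACACACA in 0.0%, beside 5.08%, TATAAA in 11.1%, beside 24.8%, and CACGTG in 33.3%, beside 3.67%. No paired analysis was possible because the replicates form 1 group. With 2 replicates and unknown depth, a missing peak means only that none was listed. The cause of these shifts was not tested.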

Other observations

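The 7 large-subunit genes lost when only the stronger 50% of the IDR peaks were kept were RpL10Ab, RpL17, RpL22, RpL36, RpL37-1, RpL7A and RpLP0-like, of which 5 lie on the X chromosome. Leaving out replicate 1 lost RpL10Ab, RpL17 and RpLP0-like and gained RpL10, and leaving out replicate 3 lost RpL37-1 and RpL7A and gained RpL29. The other 34 genes with an IDR peak were among the strongest peaks of each replicate alone.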
